A study of Sus scrofa with 12 samples.

Results

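m6A peaks of boar sperm were examined on 58 listed genes of sugar use, the citrate cycle and lipid synthesis. The genes, enzymes, carriers and regulators of these pathways, were listed by name with earlier results of these data known, and ACLY, FASN, PKM, SORD, NAGK and PPP1R3B are also named by the study. All 58 symbols were found among the 20678 genes with an mRNA in the RefSeq annotation of Sscrofa11.1. A peak in at least 1 sample lay on 45 of them (77.6%), beside 56.6% of all genes. The symbol LDHB had 2 loci in the annotation, which were summed.

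Semen of 3 Duroc boars was examined fresh (Fs) and after freezing and thawing (Fts). Each ejaculate was divided. RNA of the Fs samples came from snap-frozen semen that had not gone through the steps of cryopreservation. The Fts part was cooled to 17 °C, taken up in an extender of lactose and egg yolk, cooled at 4 °C for 4 h, diluted with the same extender holding 6% glycerol, frozen and thawed. RNA fragments of about 100 nt were pulled down with an antibody to m6A (IP) and sequenced beside an input library, in 3 samples of each group. The authors used MACS to call m6A peaks for every IP library on its own, with the matching input as control, and the score of a peak is -10 times log10 of its p-value. On that scale a score of 20 stands for a p-value of 0.01 and a score of 50 for 1e-05. The lists begin at a score of 3.02, a p-value of about 0.5, so peaks with low scores are weak calls. Samples are named Fs1 to Fs3 and Fts1 to Fts3 after the numbers in the labels, and which boar gave which sample is not given in the sources used here.

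N6-methyladenosine is a mark on adenosines inside mRNAs that affects their stability and translation. Sperm make little new RNA, so their mRNAs are mostly remnants of spermatogenesis, and they obtain ATP from glycolysis along the flagellum and from mitochondria in the midpiece. Several steps of glycolysis have forms made mainly in germ cells, among them GAPDHS, PGK2 and LDHC.

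The 6 lists held 8015, 10378 and 10335 peaks in Fs1, Fs2 and Fs3 and 9682, 11510 and 11982 in Fts1, Fts2 and Fts3. On same-strand mRNA exons of the 58 genes there were 30, 27 and 34 peaks for Fs and 28, 48 and 30 for Fts. Fts2 stood above the other 5 samples, which overlapped. The means were 30.3 ± 3.51 in Fs and 35.3 ± 11.0 in Fts (SD, n = 3), and without Fts2 the difference of Fts minus Fs was -1.33 peaks in place of 5. With the 8015 highest-scoring peaks of each sample, an alternative chosen after seeing the data, it was -0.333 peaks. In that setting the difference in listed genes with a peak was -1, in place of 3. Counting only peaks with a score of at least 20, there were 8, 7 and 9 in Fs and 10, 21 and 15 in Fts, so the groups did not overlap. In percent of the peaks on listed genes this was 25.9 to 26.7 in Fs and 35.7 to 50 in Fts. Of the peaks on all mRNAs, 32.4 to 35.6% had such a score in Fs and 38.5 to 45.3% in Fts, which did not overlap either. At a minimum score of 50 the listed genes had 5, 4 and 8 peaks in Fs and 4, 12 and 8 in Fts, which overlapped. The number of listed genes with a peak was 22, 21 and 21 in Fs and 21, 27 and 25 in Fts, out of 58. In percent this was 36.2 to 37.9 in Fs and 36.2 to 46.6 in Fts, against 25.4 to 30.9% of all genes in Fs and 26.8 to 31.7% in Fts. A missing peak does not show that an mRNA or its m6A was missing, and the amount of each mRNA was not analysed here. In these bulk samples, fewer cells of a type and less RNA per cell cannot be told apart.

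**Figure D1:**
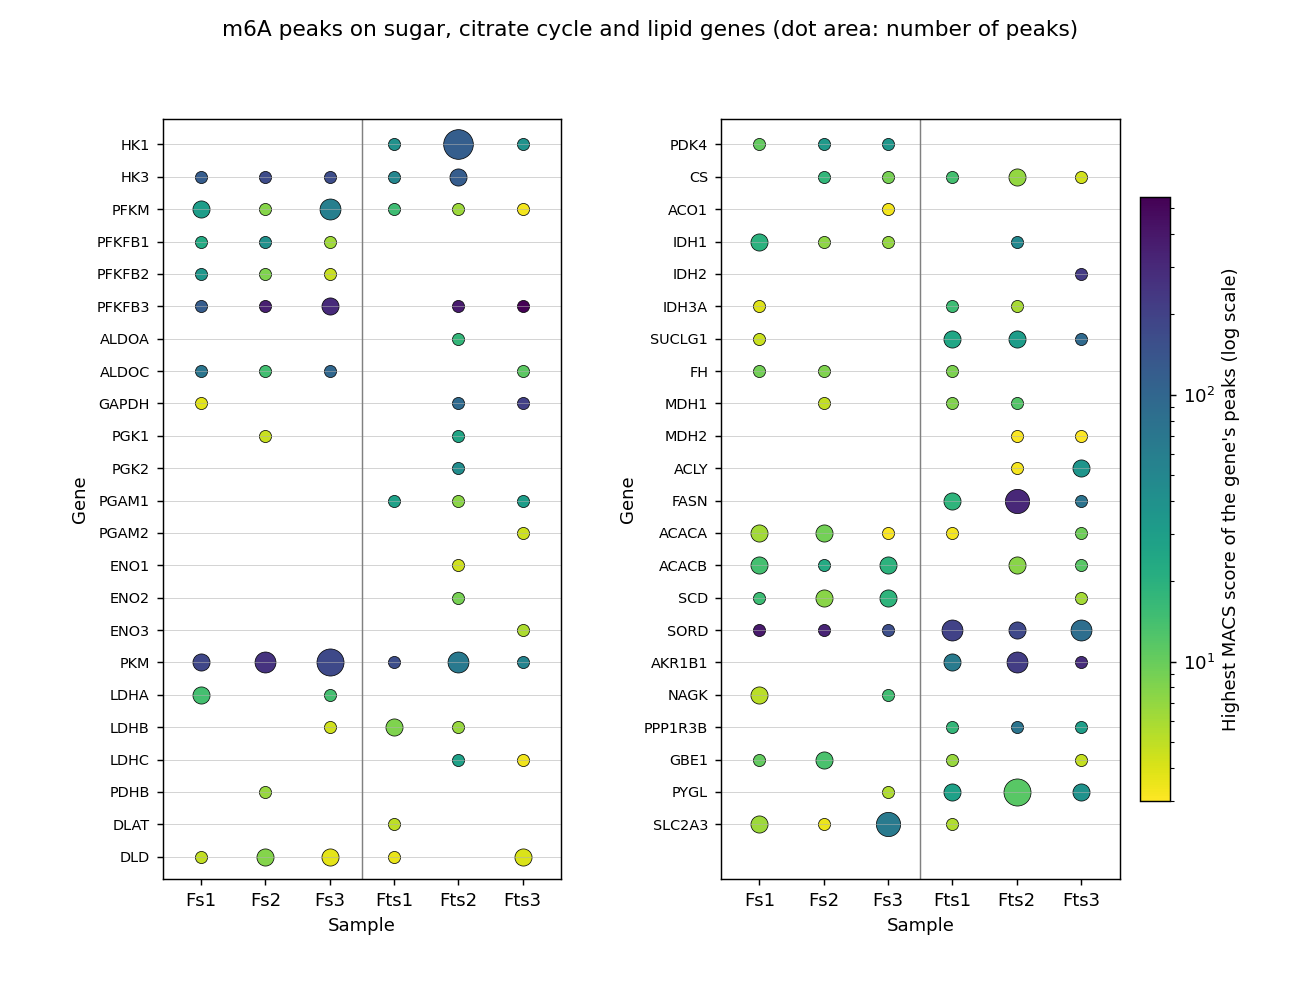
The 45 listed genes with a peak (rows) in the 3 Fs and 3 Fts samples (columns). Dot area gives the number of m6A peaks of the gene and colour its highest MACS score on a log scale, with no dot where the sample had no peak. HK1, FASN, AKR1B1, PGAM1 and PPP1R3B have dots in all 3 Fts samples and in no Fs sample, and PFKFB1, PFKFB2 and PDK4 the reverse.

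The number of peaks was higher in every Fts sample than in any Fs sample for 7 of the 45 genes with a peak (15.6%), beside 8.98% of the 11705 genes with a peak in the whole annotation. They were HK1, PGAM1, FASN, SORD, AKR1B1, PPP1R3B and PYGL. The number was higher in every Fs sample for 3 genes (6.67%), beside 5.36% of all genes, namely PFKFB1, PFKFB2 and PDK4. By the highest score of a gene, 7 genes were higher in every Fts sample, beside 13.2% of all genes and with SUCLG1 in place of SORD. In every Fs sample 7 genes were higher, beside 10.7% of all genes. The 7 in the second direction were PFKFB1, PFKFB2, PDK4, ALDOC, PKM, ACACB and SCD. For each of the 10 genes apart by number, the exact sign-flip test (two-sided, 3 pairs of equal number) gave p = 0.25, the smallest p that 3 pairs allow. Genes apart by number differ in one direction in every pair, so their choice fixed this p in advance. SUCLG1, SCD and SLC2A3 gave the same p by this exact test, since they differed in one direction in all 3 pairs although their numbers overlapped. With a minimum score of 20, the number of peaks set 4 of the 25 genes with such a peak apart toward Fts (HK1, SUCLG1, SORD and AKR1B1), beside 11.3% of all genes with such a peak, and 0 toward Fs, beside 4.54%. At a minimum score of 50, 1 of 14 genes was apart toward Fts (AKR1B1), beside 12.3% of all genes, and 0 toward Fs, beside 4.66%. With the 8015 highest-scoring peaks of each sample, an alternative chosen after seeing the data, PGAM1 and PYGL were no longer apart toward Fts and PFKFB2 no longer toward Fs, while SCD was apart toward Fs. This left 5 of 40 genes toward Fts, beside 8.25% of all genes, and 3 toward Fs, beside 7.29%.

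Among the hexokinases and the phosphofructokinase steps, which commit glucose to glycolysis, 6 of 11 genes had a peak. HK1, the hexokinase found in most tissues, had no peak in any Fs sample and 1, 6 and 1 peaks in Fts1, Fts2 and Fts3. All 3 Fts samples shared the peak on exon 16 of 19, in the CDS at chr14:72452822-72453005, with scores of 40.6, 27.2 and 39.6. The groups did not overlap, with a mean of 2.67 ± 2.89 peaks in Fts (SD, n = 3), and 5 of the 6 peaks of Fts2 lay on exons without a peak in any other sample. The highest of those, on exon 8, had a score of 118.

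HK3, another hexokinase, had the same exon marked in both groups. Its peak on exon 6 of 19, in the CDS at chr2:81050649-81050744, had scores of 121, 168 and 166 in Fs1, Fs2 and Fs3, 50.3 and 121 in Fts1 and Fts2, and was missing in Fts3. The groups overlapped. HK2 had no peak in any sample.

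PFKFB1, PFKFB2 and PFKFB3 encode enzymes that make and break down fructose 2,6-bisphosphate, the activator of phosphofructokinase. PFKFB1 had a single peak in the 3'UTR in each Fs sample, with scores of 23.3, 40.0 and 6.26, and none in Fts. PFKFB2 likewise had scores of 35.3, 8.29 and 4.63 in Fs and no peak in Fts, at chr9:67707380-67707442, the last 63 coding bases of exon 16 of 16. In both genes the groups did not overlap, and in both the lowest Fs score was under 20. PFKFB3 had the highest score of all 58 genes. Its peak at chr10:64800838-64801612 lay in the 5'UTR of 1 of its 6 mRNAs, with scores of 122, 350.4 and 294 in Fs and 0, 373 and 552 in Fts. Fts1 alone had no peak there, so the groups overlapped. PFKM, the muscle form of phosphofructokinase, had 2, 1 and 3 peaks in Fs and 1 in each Fts sample, with no region in more than 3 samples. PFKFB4, PFKL, PFKP and GPI had none.

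In lower glycolysis and lactate metabolism 14 of 16 genes had a peak, and most had few. The number of genes of this group with a peak was 4, 3 and 4 in Fs and 3, 10 and 7 in Fts, so that Fts1 lay within the Fs range. PGAM1, a phosphoglycerate mutase, had a peak with its midpoint in the 3'UTR in each Fts sample. Scores were 28.4, 7.41 and 31.2, and there was no peak in Fs. The peaks began at the same base of exon 4 of 4, at chr14:108831731, before the stop codon, and ended at 3 different positions. That of Fts2 ran 157 bases past the annotated end.

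GAPDH, a widely used reference gene, had scores of 3.80, 0 and 0 in Fs and 0, 92.0 and 206 in Fts. The 2 high scores lay at the 3' end, at chr5:64129346-64129952, where 332 of 607 bases of the merged region were past the annotated end of the gene. ALDOC, an aldolase, had scores of 72.5, 14.7 and 98.3 in Fs and 0, 0 and 11.3 in Fts. These peaks lay in the 5'UTR on exon 1 of 1 of its 2 mRNAs and ended 11 nt before the first coding base. Its highest score was thus lower in every Fts sample, while its number of peaks overlapped.

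PKM, pyruvate kinase, was the only listed gene with a region covered in all 6 samples. The region at chr7:61007089-61007451 lay on an exon found in 7 of 22 mRNAs of the locus and not in its longest coding transcript. Scores were 183, 258 and 173 in Fs and 164, 67.2 and 54.0 in Fts, so every Fts value was lower. The peaks covered 103, 103 and 71 bp in Fs and 363 bp in each Fts sample. Over the whole gene PKM had 2, 3 and 5 peaks in Fs and 1, 3 and 1 in Fts, and these numbers overlapped (exact sign-flip test, p = 0.5). At a minimum score of 20 the difference of Fts minus Fs turned from -1.67 to 0.333 peaks. The study lists PKM as hypermethylated in Fts, by its own comparison, which was not used here. It also measured total m6A of PKM mRNA by qPCR after pulldown and reported that the result matched its sequencing. Such a measure of the whole mRNA is unlike the score of a single region.

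Of the germ cell forms, GAPDHS had no peak in any sample. PGK2, a gene of a single exon, had a peak in Fts2 alone, with a score of 43.5. LDHC, the sperm lactate dehydrogenase, had peaks on exon 4 of 8 in Fts2 and Fts3, with scores of 28.6 and 3.35, and none elsewhere. No germ cell form was marked in an Fs sample, where 25.4 to 30.9% of all genes had a peak. LDHA had 2, 0 and 1 peaks in Fs and none in Fts, and LDHB had 0, 0 and 1 in Fs and 2, 1 and 0 in Fts. ALDOA, ENO1 and ENO2 had a peak in Fts2 only, and ENO3 and PGAM2 in Fts3 only. PGK1 had a peak in Fs2 and in Fts2, and TPI1 had none.

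For pyruvate dehydrogenase and the citrate cycle, 13 of 17 genes had a peak, with 7, 8 and 6 peaks in Fs and 8, 8 and 6 in Fts. These sums overlapped. PDK4, a kinase that switches pyruvate dehydrogenase off, had a peak with its midpoint in the 3'UTR in every Fs sample. Scores were 10.5, 33.8 and 35.2, and there was no peak in Fts. SUCLG1, a subunit of succinyl-CoA ligase, had highest scores of 4.51, 0 and 0 in Fs and 25.4, 31.8 and 92.2 in Fts. The scores of SUCLG1 did not overlap, while its peaks numbered 1, 0 and 0 against 2, 2 and 1. Its highest score fell on exon 7 in Fts1 and on exon 8 in Fts3, and at the 5' end of the gene in Fts2.

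IDH2, the mitochondrial NADP-dependent isocitrate dehydrogenase, had a single peak in Fts3, with a score of 224, at chr7:55675306-55675378. All 73 bases of it were coding bases of exon 1, beginning 42 nt past the first coding base. No other sample had a peak on IDH2. IDH1, its cytosolic counterpart, had a region in the 3'UTR in the 3 Fs samples and no Fts sample, with scores of 19.7, 7.26 and 6.82. A separate peak on exon 3 of IDH1 in Fts2 had a score of 48.6, so the gene as a whole overlapped between groups. DLD had low scores in 5 samples, none above 7.82. PDHA1, PDK1, OGDH and PC had no peak.

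All 5 genes of lipogenesis had a peak. FASN, the fatty acid synthase, had none in Fs and 2, 4 and 1 peaks in Fts1, Fts2 and Fts3, with highest scores of 18.7, 308 and 75.4. The mean was 2.33 ± 1.53 peaks in Fts (SD, n = 3). No region of FASN was shared by all 3 Fts samples. Exon 8, at chr12:926001-926463, was covered in Fts1 and Fts2, and exon 21, at chr12:929934-930137, in Fts2 and Fts3. For FASN the study reports an increase of m6A in Fts by sequencing. By qPCR after pulldown it reports a lower total m6A of FASN mRNA in Fts. ACLY, which makes cytosolic acetyl-CoA from citrate, had no peak in Fs or Fts1, 1 in Fts2 with a score of 3.21 and 2 in Fts3 with scores of 32.0 and 36.5. The groups thus overlapped at 0.

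SCD and ACACB had lower highest scores in every Fts sample than in any Fs sample. SCD, a fatty acid desaturase, had highest scores of 15.6, 7.61 and 18.8 in Fs and 0, 0 and 6.01 in Fts. ACACB, an acetyl-CoA carboxylase, had 14.2, 23.1 and 19.5 in Fs and 0, 7.56 and 11.7 in Fts. All but 1 of these scores were under 20. ACACA, the other carboxylase, overlapped, with 2, 2 and 1 peaks in Fs and 1, 0 and 1 in Fts and highest scores of 6.20, 9.02 and 3.09 against 3.28, 0 and 9.57.

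All 6 genes of the polyol, glycogen and amino sugar group had a peak, and 4 had more peaks in every Fts than in any Fs sample (SORD, AKR1B1, PPP1R3B and PYGL), beside 8.98% of all genes. Of 12 other glycogen genes in the annotation, 8 had a peak and 0 had more peaks in every Fts than in any Fs sample. By highest score, 3 of the 6 genes and 1 of the 8 were higher in every Fts sample, beside 13.2% of all genes. The 1 was GYS2, the liver glycogen synthase, with 3.02, 0 and 0 in Fs and 12.3, 10.9 and 15.3 in Fts. The sum over the group of 6 was 4, 3 and 3 peaks in Fs and 9, 11 and 8 in Fts. SORD and AKR1B1 encode the enzymes of the polyol pathway, in which aldose reductase turns glucose into sorbitol and sorbitol dehydrogenase turns sorbitol into fructose. The Fs samples had 1 SORD peak each, and Fts1, Fts2 and Fts3 had 3, 2 and 3. In the CDS of exon 7 of 9, at chr1:126663715-126663838, scores were 384, 329 and 160.0 in Fs and 197 and 177 in Fts1 and Fts2, with no peak in Fts3. The additional Fts peaks lay mainly at the gene's ends. A region at chr1:126700863-126701445, with scores of 22.1, 40.5 and 38.5 in Fts, had 361 of 583 bases before the annotated start, and a region at chr1:126658707-126659502 in Fts1 and Fts3 had 491 of 796 bases past the annotated end. With at least 50% of a peak required on exons, the difference in the number of SORD peaks was 0.

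AKR1B1, the aldose reductase, had no peak in Fs and 2, 3 and 1 in Fts. The region shared by the 3 Fts samples lay at the 3' end, at chr18:14751914-14752565, with scores of 64.6, 219.7 and 287. At a minimum score of 50, applied to regions after seeing the data, it was the only one of 19 listed regions seen in 3 Fts and no Fs samples, beside 9.54% of all regions at that score, and 0 were seen in 3 Fs and no Fts samples, beside 3.61%. Exon 5 of 10, in the CDS, had scores of 36.8 and 121 in Fts1 and Fts2.

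Glycogen genes gave PPP1R3B and PYGL. PPP1R3B, which brings protein phosphatase 1 to glycogen, had 1 long peak in each Fts sample, from 1509 to 2504 bp, with scores of 17.3, 74.7 and 30, and none in Fs. PYGL, the liver form of glycogen phosphorylase, had 0, 0 and 1 peaks in Fs and 2, 5 and 2 in Fts, with highest scores of 0, 0 and 5.56 against 28.7, 11.5 and 38.9. Exon 17 of 21 was covered in all 3 Fts samples at scores of 5.63, 11.4 and 4.39. GBE1, the glycogen branching enzyme, overlapped with 1, 2 and 0 against 1, 0 and 1 peaks. NAGK, the N-acetylglucosamine kinase, had 2, 0 and 1 peaks in Fs, with highest scores of 5.14, 0 and 14.9, and none in Fts. Because Fs2 had no NAGK peak, the groups overlapped.

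Among the sugar carriers, SLC2A3 had 2, 1 and 4 peaks in Fs and 1, 0 and 0 in Fts, with a highest score of 66.3 in Fs3. Fs2 and Fts1 were equal at 1, so the groups overlapped, while each Fts sample was lower than the Fs sample of its number. SLC2A1 and SLC2A5 had no peak.

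**Figure D2:**
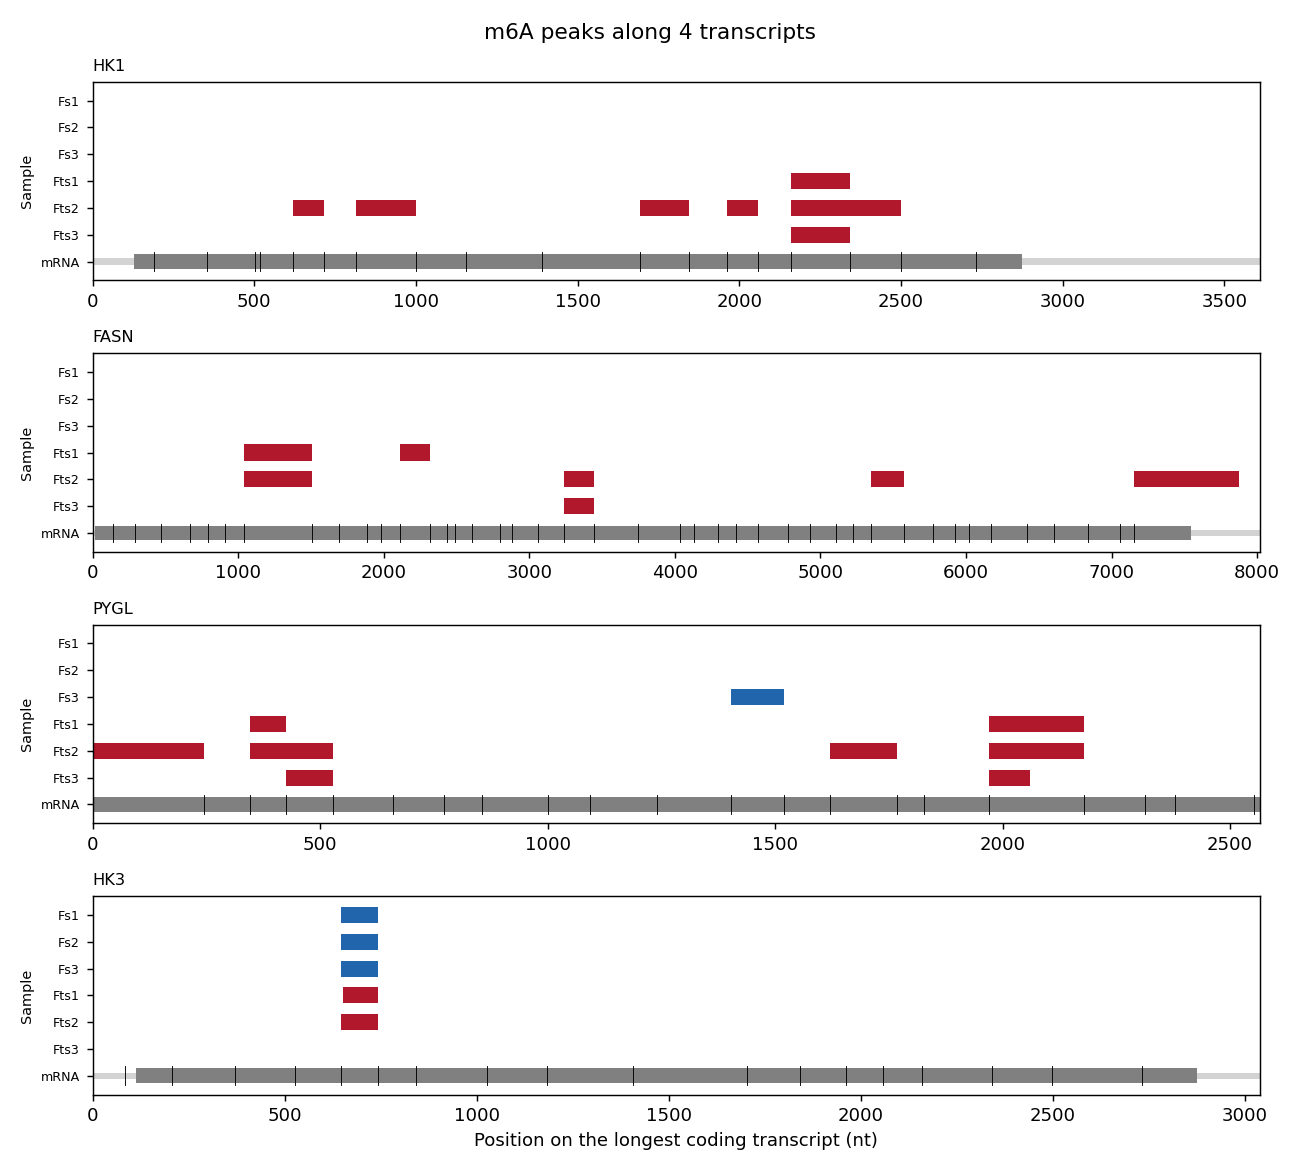
Peaks of the 3 Fs samples (blue) and 3 Fts samples (red) along the spliced longest coding transcripts of HK1, FASN, PYGL and HK3, in nt from the 5' end. On the mRNA line the thick bar is the CDS and ticks mark exon junctions. HK1 exon 16 is covered in the 3 Fts samples, and HK3 exon 6 in 5 of 6 samples.

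Along the transcripts, a peak was placed when its midpoint lay on an exon of the gene's longest coding transcript. On the listed genes 9, 5 and 6 peaks in Fs and 6, 7 and 7 in Fts were not placed. They included 5'UTR peaks of PFKFB3 and 3'UTR peaks of AKR1B1, and the shares leave them out. Of the placed peaks, 47.6%, 54.5% and 67.9% in Fs and 90.9%, 80.5% and 60.9% in Fts lay in the CDS. Fts3 fell within the Fs range, so the groups overlapped at 56.7% ± 10.3 against 77.4% ± 15.3 (SD, n = 3). At a minimum score of 50 the difference of Fts minus Fs turned from 20.8 to -9.72 percentage points. At that score the listed genes had only 5, 4 and 8 peaks in Fs and 4, 12 and 8 in Fts. Not all of these were placed, so single peaks weigh heavily in that difference. For all genes the same share was 72.2% ± 0.622 in Fs and 76.4% ± 0.474 in Fts. Placed peaks in the 3'UTR numbered 6, 6 and 4 in Fs and 1, 3 and 4 in Fts. This count leaves out the AKR1B1 peak in the 3'UTR of another mRNA in each Fts sample. It also leaves out peaks at the 3' end of SORD in Fts1 and Fts3 and of GAPDH in Fts2. Many peaks filled a whole exon. Of the peaks on listed genes, 36.7%, 37.0% and 55.9% in Fs and 64.3%, 62.5% and 50% in Fts covered exactly 1 annotated exon, beside 39.5% ± 0.651 and 51.6% ± 1.75 of the peaks on all mRNAs.

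Merged over the 6 samples, the peaks formed 111 regions on the listed genes and 26095 regions on all mRNAs. A single sample held 61 of the 111 (55.0%), beside 47.3% of all regions, and 14 (12.6%) were seen in both groups, beside 23.2%. Regions in 3 Fts and no Fs samples numbered 6 (5.41%), beside 6.82% of all regions, and were on HK1, PGAM1, SORD, AKR1B1, PPP1R3B and PYGL. Regions in 3 Fs and no Fts samples also numbered 6 (5.41%), beside 3.63% of all regions, and were on PFKFB1, PFKFB2, PDK4, IDH1, ACACB and SCD. At a minimum score of 20, applied to regions after seeing the data, the second set had 0 of 39 regions, beside 3.51% of all regions at that score, and the first had 3, beside 8.5%.

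The m6A consensus is a purine, a purine, A, C and any base but G, which gives 12 forms of 5 letters. GGACT, on the transcript strand, was in 22 of the 111 regions (19.8%), beside 22.4% of all regions. Any of the 12 forms was in 85.6% of the listed regions and in 85.3% of all regions, with median lengths of 160 and 162 bp. The listed regions held 13.4 such forms per 1000 nt and all regions 13.8.

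Coding stretches of 8 regions were read on the transcript strand of Sscrofa11.1, with the consensus forms in capitals. Each is the part common to the peaks of the samples named. SORD and HK3 were marked in both groups, in 5 of 6 samples. HK1 exon 16 and PYGL exon 17 were marked in the 3 Fts and no Fs samples, and PFKFB2 exon 16 and ACACB exon 41 in the 3 Fs and no Fts samples. FASN exon 21 was marked in Fts2 and Fts3 alone and AKR1B1 exon 5 in Fts1 and Fts2 alone, and these are shown because the number of peaks of both genes set the groups apart.
SORD exon 7, chr1:126663750-126663838, minus strand: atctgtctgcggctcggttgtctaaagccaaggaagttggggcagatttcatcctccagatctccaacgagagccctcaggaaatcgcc
HK3 exon 6, chr2:81050654-81050744, plus strand: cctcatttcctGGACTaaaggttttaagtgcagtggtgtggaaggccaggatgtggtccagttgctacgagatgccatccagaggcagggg
HK1 exon 16, chr14:72452822-72453005, plus strand: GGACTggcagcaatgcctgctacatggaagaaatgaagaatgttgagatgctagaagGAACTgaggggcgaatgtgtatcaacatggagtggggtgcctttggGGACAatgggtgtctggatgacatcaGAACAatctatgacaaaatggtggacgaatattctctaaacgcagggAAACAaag
PYGL exon 17, chr1:180667618-180667708, minus strand: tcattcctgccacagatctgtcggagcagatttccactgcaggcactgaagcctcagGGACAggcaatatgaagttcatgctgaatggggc
FASN exon 21, chr12:929934-930137, plus strand: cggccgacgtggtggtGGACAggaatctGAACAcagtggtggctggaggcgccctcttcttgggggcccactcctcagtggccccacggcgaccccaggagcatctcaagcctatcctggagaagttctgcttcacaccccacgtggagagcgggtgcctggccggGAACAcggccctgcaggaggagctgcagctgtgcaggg
AKR1B1 exon 5, chr18:14745642-14745764, plus strand: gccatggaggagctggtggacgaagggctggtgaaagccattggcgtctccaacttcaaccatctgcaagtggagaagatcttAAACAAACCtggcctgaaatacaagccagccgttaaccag
PFKFB2 exon 16, chr9:67707380-67707442, plus strand: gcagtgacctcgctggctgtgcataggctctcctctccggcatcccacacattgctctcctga
ACACB exon 41, chr14:41644701-41644823, minus strand: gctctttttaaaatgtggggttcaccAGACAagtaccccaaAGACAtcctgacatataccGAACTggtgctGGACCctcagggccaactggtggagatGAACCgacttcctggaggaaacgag
The HK1 stretch held 5 forms, 1 of them GGACT, and the HK3 stretch held GGACT alone. The ACACB stretch held 5 forms without GGACT, and the PYGL stretch held 1. The SORD and PFKFB2 stretches held none of the 12 forms.

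Of 84 other genes of these pathways, 83 were in the annotation and 45 had a peak. In number of peaks, 0 were higher in every Fts sample, beside 8.98% of all genes, and 1 in every Fs sample (2.22%), beside 5.36%. The 1 gene was PDP2, a phosphatase of pyruvate dehydrogenase with scores of 30.7, 10.1 and 21.6 in Fs and none in Fts. By highest score, 2 were higher in every Fts sample (4.44%), beside 13.2% of all genes, and 3 in every Fs sample (6.67%), beside 10.7%. The first were ADPGK and GYS2, and the others PDP2, ACSS2 and SLC5A1. ADPGK, an ADP-dependent glucokinase, had highest scores of 0, 5.74 and 3.19 in Fs and 72.0, 58.8 and 112 in Fts. PCK1, which makes phosphoenolpyruvate in gluconeogenesis, had 1 peak in each of the 6 samples, with scores of 319, 144.6 and 226 in Fs and 430, 264 and 483 in Fts that overlapped. ADPGK, GYS2, PDP2, ACSS2, SLC5A1 and PCK1 were singled out after their values were seen.

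Markers of cell types were read in the same lists. Of 10 sperm markers, 4 had a peak, with 2, 2 and 3 peaks in Fs and 3, 3 and 2 in Fts. AKAP3 had peaks in the 3 Fs samples and Fts3, with highest scores of 5.68, 15.7, 6.47 and 18.4. ODF2 had 3 peaks each in Fts1 and Fts2, with highest scores of 374 and 381. CAPZA3 had a peak in Fs2 alone and TNP2 in Fts3 alone, where its score of 2075 was the highest among the 10 sperm markers. PRM1, TNP1, ODF1, AKAP4, SMCP and HSPA1L had none. Since peaks give no level of RNA, the labelled cell type was not checked by expression. Of 5 epithelial markers, 4 had a peak, with 1, 1 and 2 peaks in Fs and 6, 7 and 6 in Fts. KRT8 had 0 in each Fs sample and 3, 4 and 2 in Fts, with the highest score among the epithelial markers, 481, in Fts2. KRT19 and KRT18 also had higher scores in every Fts sample than in any Fs sample, which makes 3 of the 4 markers with a peak, KRT8 included, beside 13.2% of all genes with a peak. CDH1 overlapped and EPCAM was without a peak. The summed epithelial peaks were thus higher in every Fts sample, as were the peaks of HK1, PGAM1, FASN, SORD, AKR1B1, PPP1R3B and PYGL, and their part in these results was not tested. Before RNA extraction the sperm had been washed and treated with a detergent meant to remove somatic cells. Of 6 leukocyte markers, 3 had a peak, with 0, 3 and 2 peaks in Fs and 0, 0 and 1 in Fts. CD48, LYZ and S100A9 had none, and the highest score was 13.03 on PTPRC in Fts3. Of 5 Sertoli and Leydig cell markers, 3 had a peak, with 0, 2 and 2 peaks in Fs and 0, 1 and 0 in Fts. WT1 and AMH had none, and the highest score was 27.8 on INSL3 in Fs2.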

How the data were processed

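The authors trimmed reads with cutadapt 1.9.3, aligned them with HISAT2 to susScr11 (Sscrofa11.1) and called peaks in each of the 6 IP samples with MACS against its input, without pooling. In the deposited peak lists the authors give each peak a score, -10 times log10 of its p-value, with no scaling between samples. Read depth was not analysed here. A further deposited list holds the authors' own comparison of Fts with Fs and was not used.

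Peaks were placed on RefSeq Annotation Release 106. All 61902 peaks lay within sequences of that assembly. A peak belonged to a gene by 1 bp on a same-strand mRNA exon. Its midpoint on the longest coding transcript gave its feature, with codon classes of 100 nt to each side. Peaks off that transcript were not placed in counts and shares, and were described on another mRNA of the gene where one held the midpoint. Peaks were merged over samples into regions.

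The members and lists were chosen with earlier results of these data known. Genes were named when number or highest score did not overlap between groups, when a region was in all 6 samples, for the 10 highest scores, when the study names them, and as germ cell forms. Other genes given with values were chosen after their values were seen. Single genes were tested by exact sign flips (two-sided) on pairs of equal number, as the study's design is paired. The ejaculates came from 3 boars, but which boar gave which sample is not given in the sources used here. If the samples of a group are not separate boars, p-values measure only the spread between these samples, which may be technical. Alternatives were minimum scores, the overlap rule, the transcript, joined peaks, the codon classes, the pairing and leaving out each sample, and, chosen after seeing the data, equal numbers of peaks per sample and minimum scores for regions. Python 3.11.15, numpy 2.4.6 and pysam 0.24.0 were used, and code was tested on simulated data.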

Additional observations from a re-analysis of the deposited data

How the results depend on the processing

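The difference of Fts minus Fs in peaks on listed genes ranged from -1.33 to 8.67 when each sample was left out in turn, and was below 0 only without Fts2. It was 7.33 at a score of at least 20, 2.33 at 50, 8 on the longest coding transcript, 4 with joined peaks and 3 with at least 50% of a peak on exons. With the 8015 highest-scoring peaks of each sample, an alternative chosen after seeing the data, it was -0.333, and that in genes with a peak was -1. In that setting PGAM1, PYGL and PFKFB2 were no longer apart (exact sign-flip test, p = 0.5 each). The difference in CDS share was -9.72 percentage points at a minimum score of 50, with 20.8 over all placed peaks. At that minimum score it rested on few peaks per sample. The cause was not tested. In the other settings it lay between 14 without Fts1 and 29.0 without Fts3, with 24.1 at a score of at least 20.

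The number of genes apart toward Fts was 4 at a score of at least 20 and 1 at 50. Toward Fs it was 0 at both. Toward Fs it was 7 by highest score, 5 of 45 in the replicate block, by direction in the 3 pairs of equal number, beside 6.86% of all genes, and 4 to 7 with a sample left out. Without Fs2 it was 7 (15.6%), beside 7.6% of all genes, without Fts2 or Fts3 5, beside 7.13% and 7.6%, and without Fs1, Fs3 or Fts1 4, beside 10.3%, 7.38% and 6.66%. Toward Fts the block gave 8 (17.8%), beside 10.8%, and leaving out a sample gave 7 to 10. It was 10 (22.2%) without Fts1, beside 13.9%, 8 without Fs1 or Fts3, beside 10.1% and 11.6%, and 7 without Fs2, Fs3 or Fts2, beside 11%, 10.7% and 11.4%. Same-numbered samples did not deviate together, with correlations of 0.0103, -0.0143 and 0.0129 over 11705 genes, so the numbers are not shown to pair samples. Without the block, an exact permutation of 3 against 3 samples gave p = 0.1 for each of the 10 genes apart, the smallest it can give. The choice of genes whose groups do not overlap fixed this p too.

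With at least 50% of a peak on exons 7 of 45 genes (15.6%) were apart toward Fts, beside 8.88% of all genes, with SUCLG1 in place of SORD. Among 13 genes (the 10 apart, ACLY, NAGK and PKM), at a score of at least 20 PKM turned to a difference of 0.333 and NAGK was at 0. At a score of at least 50, 9 of the 13 were at 0, namely PFKFB1, PFKFB2, PGAM1, PDK4, SORD, PYGL, ACLY, NAGK and PKM. The part of read depth in these lists was not tested.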

Other observations

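Some peaks lay on exons of equal length in related genes or gene parts, a pattern singled out after the values were seen. Hexokinase 1 is built from a similar N-terminal and C-terminal part. Of the 6 HK1 peaks in Fts2, 4 lay on 2 such pairs of exons, exons 6 and 14, both of 96 nt and equal at 62.5% of bases, and exons 8 and 16, both of 184 nt and equal at 64.7%. Exon 6 of HK3, marked in 5 of 6 samples, is also 96 nt long and shares 62.5% of bases with exon 6 of HK1. Exon 4 is 174 nt long in both LDHB and LDHC and equal at 68.4% of bases. LDHB had a peak there in Fts1 and Fts2, and LDHC in Fts2 and Fts3. Exon 42 is 270 nt long in both ACACA and ACACB and equal at 72.2%, with peaks on ACACA in Fs1 and Fs2 and on ACACB in Fts2 and Fts3. Exon 7 of ENO2 and of ENO3 is 223 nt long and equal at 83.0%, with a longest run of 26 equal bases, and had a peak on ENO2 in Fts2 and on ENO3 in Fts3. Whether reads were shared between these copies was not tested.

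GGACT was also counted by where regions were seen. Regions of the listed genes seen in Fs only held 1.49 GGACT per 1000 nt, those in Fts only 0.724 and those in both groups 0.575, beside 1.04, 1.03 and 0.979 over all regions, from 39, 58 and 14 regions of the listed genes.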
